A study of Mus musculus with 13 samples.

Results

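Desmosomes were examined through 10 genes that encode their components: the plakin Dsp, the cadherins Dsg2, Dsg3, Dsc2 and Dsc3, the armadillo proteins Jup, Pkp1, Pkp2 and Pkp3, and the membrane protein Perp. They were chosen by gene symbol in the platform annotation of the array. Of the 10, 9 had at least 1 probe set named for that gene alone, 22 probe sets in all, among 18193 named genes and 45037 probe sets tested. Dsg3 had none under its symbol and was not analysed here. Each gene is represented by its brightest probe set, judged by the mean of the 13 arrays.

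Messenger RNA came from adult mouse prostatic progenitor/stem cells, cultured from 10 wk old animals labelled wild-type B1/6; 127/SVEV and used at passage 22. The groups were 100 nM 1,25(OH)2D3 (1,25D, the hormonal form of vitamin D) for 48 h (4 arrays), vehicle (0.1% ethanol) for 48 h (3), 1,25D for 6 h (3) and vehicle for 6 h (3). For 48 h the treatment was given every 24 h. All groups were wild-type cells at the same passage, and nothing in the labels ties a replicate to a culture of its own, so p-values measure only the spread between these arrays.

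A desmosome is a spot-like junction that fastens the keratin filaments of neighbouring epithelial cells to each other. Desmogleins and desmocollins bridge the gap between the cells, plakoglobin (Jup) and the plakophilins bind their tails inside the cell, and desmoplakin (Dsp) ties this plaque to keratin. In stratified epithelium the cadherin and plakophilin isoforms change as cells leave the basal layer. The prostate epithelium has basal and luminal cells, and both form desmosomes.

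The labelled cell type was checked against marker genes. All 6 basal epithelial markers lay above the median probe set, from the 69.4 percentile for Krt15 to the 99.9 percentile for Krt14, and the keratins Krt8 and Krt18 of luminal cells lay at the 99.7 percentile. The prostate secretory gene Pbsn lay at the 5.91 percentile and the prostate homeobox gene Hoxb13 at the 31.1 percentile. Of the 5 endothelial markers none lay above the median, and of the 9 stromal and muscle markers 2 did. Of the 6 immune markers 3 did (Cd3e, Csf1r and Cd68, at the 67.1, 65.2 and 63.9 percentile), while the general leucocyte gene Ptprc lay at the 15.9 percentile. Of the 4 nerve and neuroendocrine markers 2 did (Sox10 at the 62 and S100b at the 53.4 percentile). 1,25D 48 h replicate 4 and vehicle 6 h replicate 1 stood apart, since the middle of their signals spanned 2.95 and 3.03 log2 units between quartiles, against 3.27 to 3.46 on the other arrays. Both were kept, and the counts were repeated without them.

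Promoter sequence was available for 2 of the 10 genes, Dsp and Jup, in the RefSeq table of build GRCm38.p6, as the 250 bases before and 50 bases after the start of the gene. They are shown because no other of the 10 genes had a window in that table. Both encode plaque proteins. Capitals mark GC boxes (GGGCGG, either strand) and the E-box CAGGTG (either strand), the form bound by Snail and Zeb repressors. No 2 marked motifs overlap.
Dsp, chr13:38151044-38151343, plus strand: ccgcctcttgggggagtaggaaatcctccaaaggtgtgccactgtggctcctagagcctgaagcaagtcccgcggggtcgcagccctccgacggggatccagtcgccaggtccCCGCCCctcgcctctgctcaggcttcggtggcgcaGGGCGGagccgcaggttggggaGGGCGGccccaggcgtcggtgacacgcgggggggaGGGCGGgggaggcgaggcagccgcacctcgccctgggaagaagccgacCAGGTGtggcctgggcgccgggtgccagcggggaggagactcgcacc
Jup, chr11:100397741-100398040, minus strand: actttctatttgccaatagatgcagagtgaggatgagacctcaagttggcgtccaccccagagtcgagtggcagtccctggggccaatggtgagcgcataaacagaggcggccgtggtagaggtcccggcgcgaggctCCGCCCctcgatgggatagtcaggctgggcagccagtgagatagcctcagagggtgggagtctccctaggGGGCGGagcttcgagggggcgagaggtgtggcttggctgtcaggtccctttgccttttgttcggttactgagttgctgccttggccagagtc

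The Dsp window held 4 GC boxes and 1 CAGGTG, and the Jup window held 2 GC boxes and 0 CAGGTG. Among 32851 promoter windows of the same length, 35.7% held a GC box and 20.2% a CAGGTG. Nuclear receptors such as the vitamin D receptor bind pairs of short hexamers, and 3 of these were searched on both strands. AGGTCA was found in 16.3% of all windows. The form AGTTCA was found in 14% of them, and the form GGTTCA in 10.4%. Neither the Dsp nor the Jup window held any of the 3. The letters are a description of these windows and not evidence of binding.

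At 48 h of 1,25D none of the 9 measured desmosome genes passed the test, and the same was so at 6 h. Called genes, at an adjusted p under 0.05, made up 2.39% of all genes at 48 h (1.43% higher and 0.951% lower in 1,25D) and 0.852% at 6 h (0.687% higher and 0.165% lower). At an unadjusted p under 0.05 there were 4 of the 9 at 48 h (Dsc2, Pkp1, Pkp3 and Perp), where 10.3% of all genes had one, and 2 at 6 h (Pkp3 and Perp), where 7.01% had one. The median log2 difference over the 9 was 0.17 at 48 h (-0.0024 over all genes) and -0.17 at 6 h (-0.020 over all genes). No 95% interval reached a 2-fold change in either direction: at 48 h the intervals of the 9 genes lay between -0.62 and 0.75, and at 6 h between -0.75 and 0.61, on the log2 scale.

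**Figure D1:**
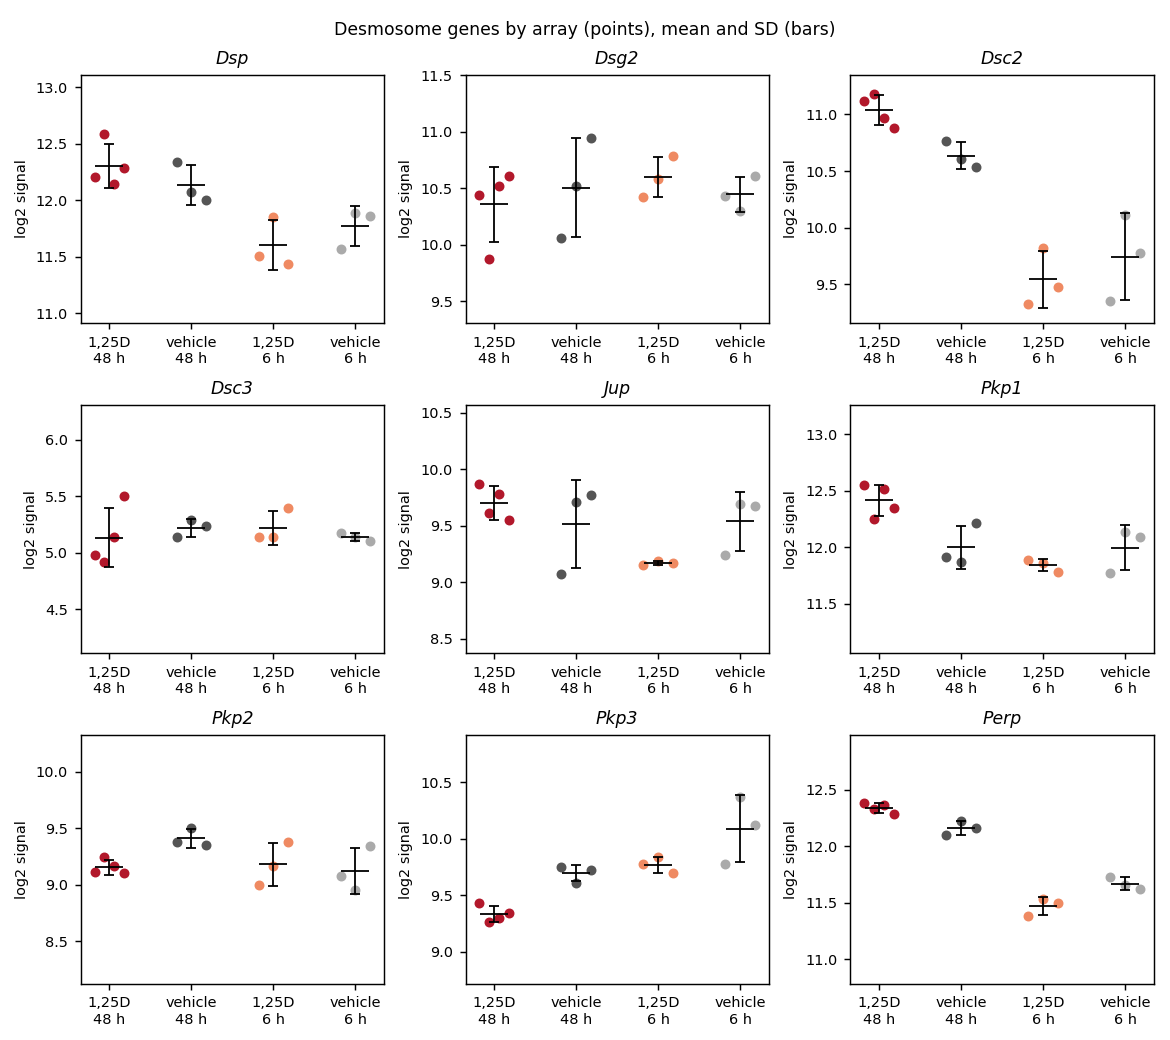
Log2 signal (vertical axis) of the 9 measured desmosome genes on each of the 13 arrays, by group (horizontal axis); points are arrays, the wide bar is the group mean and the whiskers are 1 SD. In both treatments Perp, Dsc2 and Dsp lie higher at 48 h than at 6 h without overlap and Pkp3 lies lower, whereas Dsg2 and Dsc3 overlap between all groups.

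Dsp, desmoplakin, is the link between plaque and keratin. Its log2 signal was 12.20, 12.58, 12.15 and 12.28 in 1,25D at 48 h, against 12.34, 12.07 and 12.00 in vehicle at 48 h. At 6 h it was 11.51, 11.86 and 11.44 in 1,25D, against 11.57, 11.88 and 11.86 in vehicle. The treated and vehicle arrays overlapped at both times, with a difference of 0.17 (SE 0.13, adjusted p = 1) at 48 h and -0.17 (SE 0.14, adjusted p = 0.971) at 6 h.

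Among the desmosomal cadherins, Dsc2 encodes desmocollin 2, which is found in nearly all desmosomes. It gave 11.12, 11.18, 10.97 and 10.88 in 1,25D at 48 h, against 10.76, 10.61 and 10.53 in vehicle at 48 h. The treated arrays all exceeded those of vehicle, by a mean of 0.40 (95% interval 0.053 to 0.75, adjusted p = 0.548), which did not pass the test. At 6 h the signals were 9.33, 9.82 and 9.48 in 1,25D, against 9.35, 10.11 and 9.77 in vehicle, and they overlapped (-0.20, 95% interval -0.58 to 0.17, adjusted p = 0.971).

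Dsg2 encodes desmoglein 2, the desmoglein of simple epithelia that stratified epithelia also carry. Its signal was 10.44, 9.87, 10.52 and 10.60 in 1,25D at 48 h, against 10.06, 10.52 and 10.94 in vehicle at 48 h, with an SD of 0.44 in that vehicle group. At 6 h it was 10.43, 10.58 and 10.78 in 1,25D, against 10.43, 10.30 and 10.60 in vehicle. The arrays overlapped at both times (-0.15, adjusted p = 1 at 48 h; 0.15, adjusted p = 0.971 at 6 h). Dsc3, the desmocollin of basal layers, was dim, with a mean signal at the 41.6 percentile of the array. It ranged from 4.92 to 5.50 in 1,25D at 48 h, against 5.14 to 5.29 in vehicle at 48 h, and from 5.14 to 5.39 in 1,25D at 6 h, against 5.11 to 5.18 in vehicle at 6 h, and passed no test.

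Of the armadillo proteins, Pkp1 came nearest to a call. Plakophilin 1 strengthens desmosomes in stratified epithelium, and its loss in humans makes the skin fragile. Its signal was 12.55, 12.25, 12.51 and 12.34 in 1,25D at 48 h, against 11.92, 11.87 and 12.22 in vehicle at 48 h. The groups did not overlap, and the difference of 0.42 (95% interval 0.19 to 0.64, a fold of 1.33) had an adjusted p of 0.0989. Pkp1 was called without both arrays that stand apart (0.44, adjusted p = 0.0464, where 3.31% of all genes were called), without vehicle 6 h replicate 1 alone (0.42, adjusted p = 0.0441), and without vehicle 48 h replicate 3 (0.52, adjusted p = 0.0467). At 6 h it gave 11.89, 11.86 and 11.78 in 1,25D, against 11.77, 12.13 and 12.09 in vehicle, and the groups overlapped (-0.15, adjusted p = 0.971).

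Pkp3 and Pkp2 lay on the other side at 48 h. Pkp3, plakophilin 3, which binds most other desmosomal proteins, gave 9.43, 9.26, 9.30 and 9.34 in 1,25D at 48 h, against 9.75, 9.61 and 9.72 in vehicle at 48 h. The groups did not overlap, and the difference was -0.36 (95% interval -0.62 to -0.095, adjusted p = 0.333). At 6 h it gave 9.77, 9.84 and 9.70 in 1,25D, against 9.78, 10.37 and 10.12 in vehicle (-0.32, adjusted p = 0.734), with overlap. Pkp2, plakophilin 2, the form of simple epithelia and heart muscle, gave 9.11, 9.25, 9.17 and 9.10 in 1,25D at 48 h, against 9.38, 9.50 and 9.35 in vehicle at 48 h. These did not overlap either (-0.25, 95% interval -0.51 to 0.0075, adjusted p = 0.754), and at 6 h the difference was 0.057 (adjusted p = 0.973).

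Jup, plakoglobin, also takes part in adherens junctions. In 1,25D at 48 h it gave 9.87, 9.61, 9.78 and 9.55, against 9.07, 9.71 and 9.77 in vehicle at 48 h, where replicate 1 was the low array. The difference of 0.19 (adjusted p = 1) was -0.037 without that array. At 6 h the 1,25D arrays, at 9.15, 9.19 and 9.17, lay below those of vehicle, at 9.24, 9.70 and 9.68 (-0.37, 95% interval -0.75 to 0.019, adjusted p = 0.878).

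Perp, a membrane protein needed for firm desmosomes in stratified epithelium and a known target of p53 and p63, had the tightest replicates at 48 h. It gave 12.38, 12.33, 12.36 and 12.29 in 1,25D at 48 h, against 12.10, 12.22 and 12.16 in vehicle at 48 h. At 6 h it gave 11.38, 11.53 and 11.50 in 1,25D, against 11.73, 11.66 and 11.62 in vehicle. All 1,25D arrays thus lay above vehicle at 48 h (0.18, 95% interval 0.049 to 0.31, adjusted p = 0.317) and below it at 6 h (-0.20, 95% interval -0.34 to -0.061, adjusted p = 0.432), and neither passed the test.

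**Figure D2:**
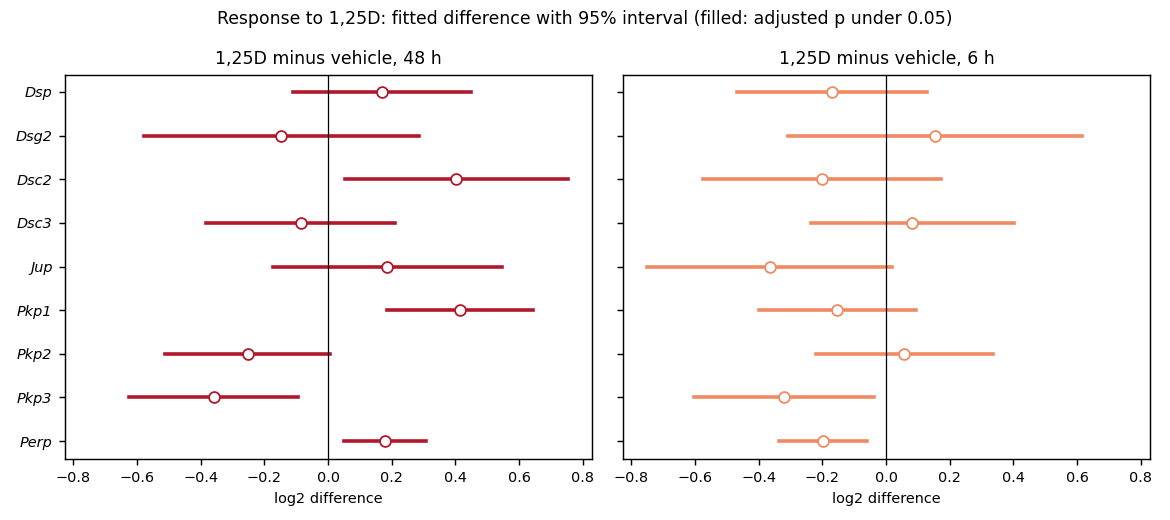
Fitted log2 difference of 1,25D minus vehicle (horizontal axis) for each desmosome gene, at 48 h on the left and 6 h on the right; lines are 95% intervals, and open circles did not pass an adjusted p of 0.05. All 18 circles are open, and at 48 h Dsc2, Pkp1 and Perp lie above 0 and Pkp3 below it with intervals that leave out 0.

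Arrays of 1,25D and vehicle did not overlap in 5 of the 9 genes at 48 h (Dsc2, Pkp1 and Perp higher, Pkp2 and Pkp3 lower), where 12.6% of all genes did not overlap (5.47% higher and 7.11% lower). At 6 h this was so for 2 of the 9 (Jup and Perp, both lower), where 10.2% of all genes did not overlap (5.68% higher and 4.51% lower). Without the 2 arrays that stand apart it was 5 of 9 at 48 h and 5 of 9 at 6 h, where 19.4% and 28.6% of all genes did not overlap. These counts rest on the brightest probe sets. With all arrays, the next brightest probe sets of Dsc2 (0.19) and Pkp2 (-0.27) overlapped between 1,25D and vehicle at 48 h. That of Pkp3 (-0.45) did not, and Pkp1 and Perp have 1 probe set each.

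Whether the response differed between 48 h and 6 h was tested directly, and no desmosome gene was called, where 0.632% of all genes were (0.346% positive and 0.286% negative). At an unadjusted p under 0.05 there were 4 of the 9, where 7.23% of all genes had one. Perp gave the smallest p, with a difference between the responses of 0.38 (95% interval 0.19 to 0.57, adjusted p = 0.129). Pkp1 followed with 0.57 (95% interval 0.23 to 0.90, adjusted p = 0.293), then Dsc2 with 0.60 (95% interval 0.091 to 1.12, adjusted p = 0.733) and Jup with 0.55 (95% interval 0.025 to 1.08, adjusted p = 0.849). When arrays were weighted by quality, Pkp1 (0.44, adjusted p = 0.00578), Pkp3 (-0.35, adjusted p = 0.0389) and Perp (0.21, adjusted p = 0.0392) were called at 48 h, and Pkp1 (0.67, adjusted p = 0.0354) and Perp (0.41, adjusted p = 0.0428) for the difference. With these weights the share of all genes called was also larger, at 5.73% at 48 h and 1.44% for the difference.

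Calls among the 9 genes came in the comparisons between 48 h and 6 h. Between 48 h and 6 h in 1,25D, 5 desmosome genes rose (Perp, Dsc2, Dsp, Pkp1 and Jup) and 1 fell (Pkp3), where 23.4% of all genes were called (10.9% higher and 12.5% lower). In vehicle 2 rose (Perp and Dsc2) and 0 fell, where 18.6% of all genes were called (9.84% higher and 8.75% lower). The vehicle count of 2 of 9 lies near that share. The arrays of 48 h and 6 h did not overlap in 6 of the 9 genes in 1,25D (5 higher and 1 lower), where 33.8% of all genes did not overlap (15.5% higher and 18.3% lower). In vehicle they did not overlap in 5 (4 higher and 1 lower), where 31.0% of all genes did not (15.8% higher and 15.2% lower). An unadjusted p under 0.05 was found for 6 of the 9 in 1,25D and 5 in vehicle, where 33.6% and 29.4% of all genes had one. Without the 2 arrays that stand apart the counts were 5 and 1 in 1,25D, where 27% of all genes were then called, and 2 and 1 in vehicle, where 23.9% were. The gene that fell in vehicle in that fit was Pkp3 (-0.55, adjusted p = 0.00541). The labels do not separate culture time from the day of processing, nor, in 1,25D, from the length of treatment, and those cannot be told apart. The 2 time comparisons and the 2 treatment comparisons share arrays, so their values are set side by side and not counted as separate evidence.

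Dsc2 moved most. It was 1.50 higher at 48 h than at 6 h in 1,25D (SE 0.16, a fold of 2.82, adjusted p = 2.19e-05) and 0.89 higher in vehicle (SE 0.17, a fold of 1.86, adjusted p = 0.0033). Its other probe set was also higher, by 1.23 in 1,25D (adjusted p = 0.0013) and by 1.15 in vehicle (adjusted p = 0.0047). No array of 48 h overlapped with those of 6 h under the same treatment in either probe set.

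Perp was 0.87 higher in 1,25D (SE 0.060, a fold of 1.83, adjusted p = 3.8e-07) and 0.49 higher in vehicle (SE 0.064, a fold of 1.41, adjusted p = 0.00015). Dsp was 0.70 higher in 1,25D (SE 0.13, a fold of 1.63, adjusted p = 0.00161), with 0.37 in vehicle (SE 0.14, adjusted p = 0.123). Its second probe set gave 0.64 in 1,25D (adjusted p = 0.0121). Pkp1 was 0.57 higher in 1,25D (SE 0.11, a fold of 1.48, adjusted p = 0.00177), with 0.0016 in vehicle (SE 0.11, 95% interval -0.24 to 0.25).

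Jup and Pkp3 were called in 1,25D with less margin. Jup was 0.53 higher (SE 0.17, adjusted p = 0.0446), with -0.021 in vehicle, and it was not called after median centring (adjusted p = 0.070) or with any single array of 1,25D at 6 h, any of replicates 1 to 3 of 1,25D at 48 h, or replicate 2 of vehicle at 48 h left out (the largest adjusted p was 0.127). Pkp3 fell by 0.44 in 1,25D (SE 0.12, adjusted p = 0.0253), with -0.40 in vehicle (SE 0.13, adjusted p = 0.0701). The call was lost with any single array of 1,25D at 6 h, or replicate 2 or 3 of 1,25D at 48 h, left out (the largest adjusted p was 0.0927), and with its other probe set, which gave -0.44 in 1,25D (adjusted p = 0.195) and 0.072 in vehicle (adjusted p = 0.931). Dsg2, Dsc3 and Pkp2 were called in neither treatment. A call in 1,25D and none in vehicle does not show that the changes differ; that difference is the one tested above, and it was called for no desmosome gene.

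**Figure D3:**
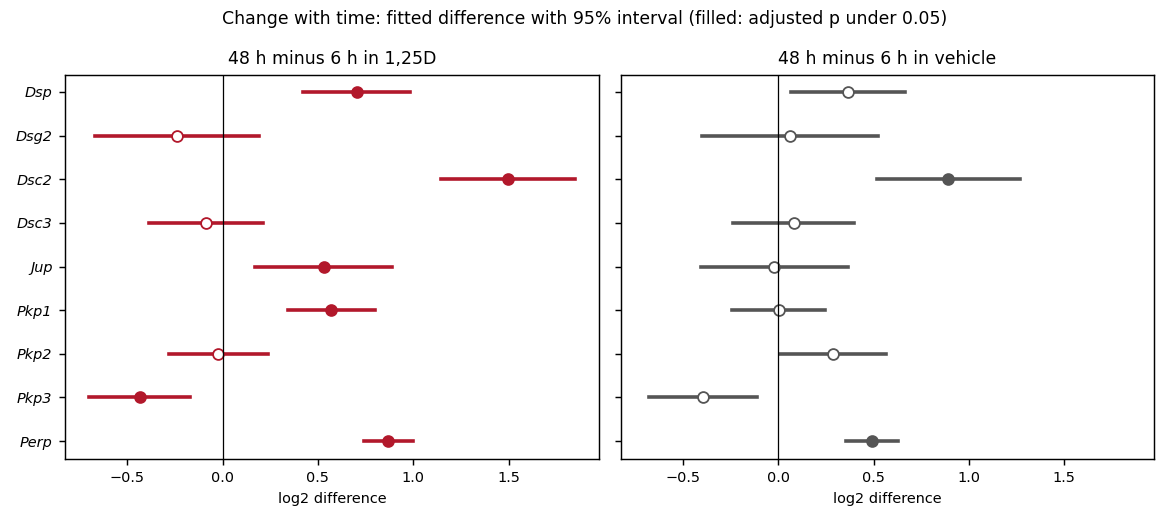
Fitted log2 difference of 48 h minus 6 h (horizontal axis) for each desmosome gene, in 1,25D on the left and vehicle on the right; lines are 95% intervals and filled circles passed an adjusted p of 0.05. There are 6 filled circles in 1,25D and 2 in vehicle, and Dsc2 lies farthest to the right in both.

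Of 6 basal epithelial markers measured, 2 (Krt15 and Trp63) rose over the same interval in each treatment. Krt5, Krt14, Itgb4 and Cdh3 were called in neither. Over all genes, 23.4% were called in 1,25D and 18.6% in vehicle. The summed linear signal of the 6 markers ranged from 24365 to 26862 in 1,25D at 48 h, against 22404 to 23451 in 1,25D at 6 h. In vehicle it ranged from 23635 to 26625 at 48 h, against 22675 to 26651 at 6 h. No basal marker was called for 1,25D against vehicle at either time. The part of cell composition in the changes of desmosome genes was not tested, and more cells of a type and more RNA per cell cannot be told apart in such bulk samples.

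Ordered by group, Perp and Dsp were highest in 1,25D at 48 h, then vehicle at 48 h, then vehicle at 6 h, and lowest in 1,25D at 6 h, and Dsc2 had the same order. For Perp no neighbours in this order overlapped. For Dsp and Dsc2 the 6 h groups overlapped, and for Dsp the 48 h groups did too. Pkp3 had the order vehicle 6 h, 1,25D 6 h, vehicle 48 h and 1,25D 48 h from high to low, and neighbours overlapped except vehicle 48 h and 1,25D 48 h.

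Within groups the genes did not vary alike. 1,25D 48 h replicate 2 and vehicle 48 h replicate 1 had the highest Dsp signal of their groups, at 12.58 and 12.34, and the lowest Dsg2 signal, at 9.87 and 10.06. The second Dsg2 probe set showed the same 2 arrays as lowest, at 8.57 in 1,25D and 8.68 in vehicle, against 9.44 to 9.63 on the other 1,25D arrays and 9.62 to 9.89 on the other vehicle arrays. The dimmest of the 3 Dsp probe sets read 10.39 and 9.25 on these 2 arrays, against 6.11 to 6.35 and 6.05 to 6.40 on the others of their groups. It also read highest on replicate 2 of both 6 h groups, at 7.29 in 1,25D and 7.54 in vehicle. These 2 arrays are not the ones that stand apart in signal range.

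**Figure D4:**
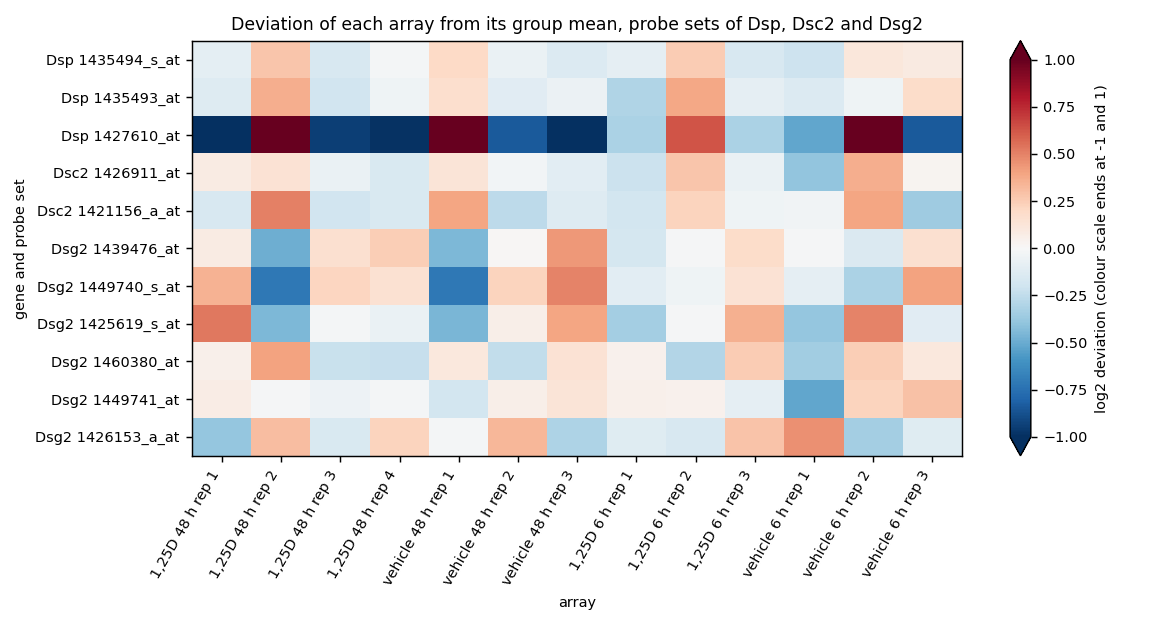
Deviation of each array (horizontal axis, 13 arrays) from the mean of its group on the log2 scale, for the probe sets of Dsp, Dsc2 and Dsg2 (vertical axis), with red above and blue below the mean and the colour scale ending at -1 and 1. 1,25D 48 h replicate 2 and vehicle 48 h replicate 1 are red for all 3 Dsp and both Dsc2 probe sets and blue for the 3 brightest Dsg2 probe sets.

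Genes with the most similar pattern were sought for Dsp and Perp among 13373 genes in the upper 60% of signal. Over the values of the 13 arrays, Dennd11 (r = 0.970), Fbxl5 (r = 0.967) and Mknk2 (r = 0.960) were closest to Dsp, and Capn5 (r = 0.985), Id2 (r = 0.983) and Gsto2 (r = 0.982) to Perp. Over the deviations from the group means, Galnt3 (r = 0.988), Fem1b (r = 0.980) and Wwp1 (r = 0.978) were closest to Dsp, and B3galt4 (r = 0.894), Neto1 (r = 0.891) and Ddx21 (r = 0.872) to Perp. These are maxima over many genes, and the arrays share the separation by time.

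Among other desmosome and plakin genes, some passed the test at 48 h of 1,25D. Of 9 measured (11 listed), 2 rose and 0 fell, with a median log2 difference of 0.32 (-0.0024 over all genes). Without the 2 arrays that stand apart 3 rose. Over all genes, 2.39% were called at 48 h, and 3.31% without those 2 arrays. Cdsn encodes corneodesmosin, a glycoprotein of the modified desmosomes of cornified layers. Its signal was 10.74, 10.34, 10.62 and 9.83 in 1,25D at 48 h, against 7.37, 7.43 and 8.14 in vehicle at 48 h, a log2 difference of 2.73 (SE 0.23, adjusted p = 1.03e-05). At 6 h it lay between 6.06 and 6.39 in 1,25D, against 5.97 to 6.25 in vehicle, and the response at 48 h exceeded that at 6 h by 2.65 (SE 0.33, adjusted p = 0.00188).

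Dsg1b, a desmoglein 1 of differentiated layers, gave 5.88, 5.85, 5.74 and 4.53 in 1,25D at 48 h, against 3.91, 3.76 and 4.01 in vehicle at 48 h. Every treated array was higher (1.60, SE 0.25, adjusted p = 0.00313), with replicate 4, one of the arrays that stand apart, as the lowest. The vehicle signals lie at the dim end of the array, so the size depends on the scale: with an offset of 16 added to the linear signal the difference was 1.01 (adjusted p = 0.00592). The probe set of Dsg1a gave 0.32 (adjusted p = 0.577). Mouse desmoglein 1 genes are near-identical copies, so the signal cannot be given to 1 of them with certainty. The plakins Evpl (0.47, adjusted p = 0.233) and Ppl (0.29, adjusted p = 0.859), envoplakin and periplakin, did not pass at 48 h, and both were higher at 48 h than at 6 h in 1,25D (1.05, adjusted p = 0.000152, and 0.63, adjusted p = 0.0105); they were named after their values were seen.

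The keratins, to which desmosomes attach, had 7 of 15 measured genes higher and 2 lower in 1,25D at 48 h, with a median of 0.18. Over all genes, 1.43% were called higher and 0.951% lower, with a median of -0.0024. Among the keratins the smallest p belonged to Krt4 (3.32), Krt6b (1.63) and Krt16 (1.51), keratins of stratified and activated epithelium, which rose, and to Krt8 (-0.43), a keratin of simple epithelium, which fell. At 6 h, where 0.852% of all genes were called, 2 rose and 0 fell, Krt4 (1.15) and Krt19 (0.80). Among proteases and kinases that act on desmosomes, 2 of 9 rose and 0 fell at 48 h, where 2.39% of all genes were called. These were the kallikreins Klk7 (1.78, adjusted p = 0.00043), which cleaves corneodesmosomes in skin, and Klk8 (1.48, adjusted p = 1.03e-05). Klk8 alone of the 9 rose at 6 h (0.72, adjusted p = 0.0208). With replicate 1 or 3 of 1,25D at 6 h left out, the 6 h calls of Klk8, Krt4 and Krt19 were lost (adjusted p from 0.0552 to 0.142), and Klk8 also lost its call with replicate 3 of vehicle at 6 h left out (adjusted p = 0.0862).

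Some markers of other cell types were called for 1,25D at 48 h, where 2.39% of all genes were. Of 9 stromal and muscle, 5 endothelial and 4 nerve and neuroendocrine markers 0 were called. Of 5 luminal markers measured (7 listed), 1 rose (Krt19) and 2 fell (Krt8 and Krt18) in 1,25D at 48 h, and their summed linear signal was 23600 to 24565 in 1,25D, against 29610 to 29951 in vehicle. The Krt19 call was lost without the 2 arrays that stand apart, where 0 luminal markers rose, 2 fell and 3.31% of all genes were called. Of 6 immune markers measured (7 listed), 1 rose (Cd68, by 1.23), and the sum was 484 to 612 in 1,25D, against 366 to 390 in vehicle. The other immune markers were not called, with differences from -0.11 (Ptprc) to 0.13 (Itgam). The part of these cell types in the results was not tested.

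Genes of neighbouring junctions were also compared between 1,25D and vehicle, where 2.39% of all genes were called at 48 h and 0.852% at 6 h. Of 12 adherens junction genes 0 were called at 48 h and 0 at 6 h, which is near those shares. At an unadjusted p under 0.05 there was 1 at each time, where 10.3% and 7.01% of all genes had one. The median was -0.12 at 48 h (-0.0024 over all genes). Of 8 measured hemidesmosome genes, which anchor basal cells to the matrix, 1 rose at 48 h, the laminin chain Lama3 (0.88, adjusted p = 0.0109), and its other probe set gave 0.18 (adjusted p = 1). The Lama3 call was lost with replicate 2 or with replicate 3 of vehicle at 48 h left out, where the larger adjusted p was 0.0736. At 6 h 0 of the 8 were called, with a median of -0.31 (-0.020 over all genes). An unadjusted p under 0.05 was found for 4 of them, where 7.01% of all genes had one. Lama3 gave -0.50 at 6 h (adjusted p = 0.473). Without the 2 arrays that stand apart 1 hemidesmosome gene was called lower at 6 h, where 1.36% of all genes were called.

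**Figure D5:**
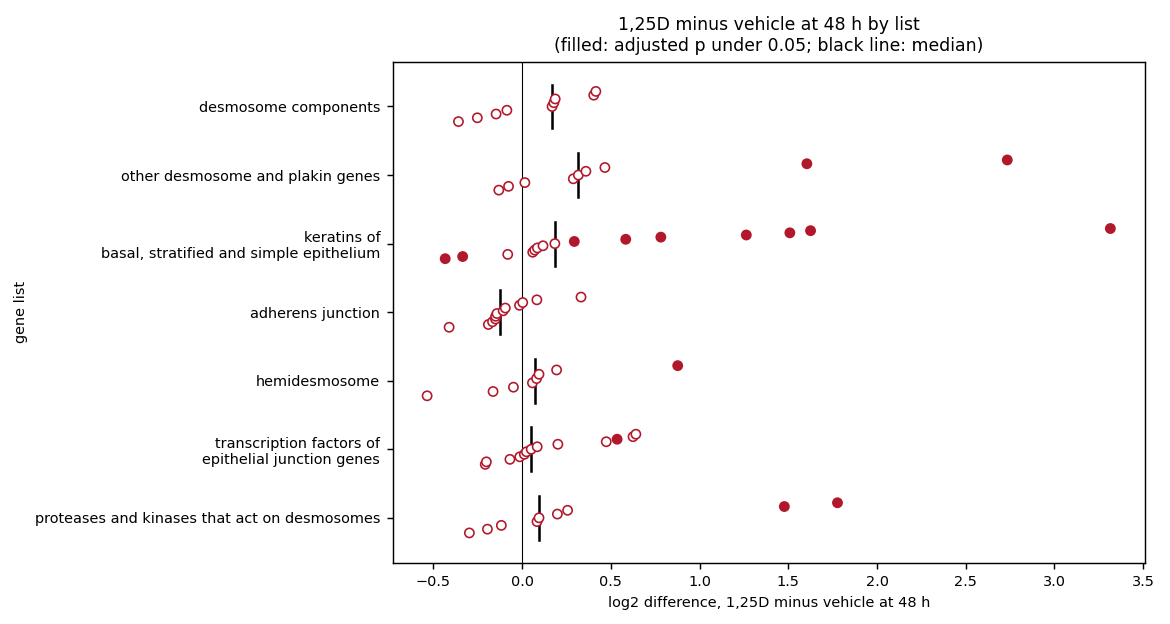
Log2 difference of 1,25D minus vehicle at 48 h (horizontal axis) for the desmosome genes and 6 related lists (vertical axis); each circle is a gene, filled where adjusted p was under 0.05, and the black line is the list median. The 9 desmosome genes lie between -0.36 and 0.42 with no filled circle, while Cdsn at 2.73 and Krt4 at 3.32 lie farthest to the right of their lists.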

How the data were processed

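Expression was measured on Affymetrix mouse arrays, 1 per sample. The deposited values are log2 signals, read as such from their range of 3.05 to 14.45; the submitters' processing notes name MAS5 with no role, and other steps are not given in the sources used here. Of 45101 probe sets, 64 controls were left out; 34945 had 1 gene symbol, 932 several and 9160 none. Detection calls were not used, and the number of arrays limits the precision.

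A linear model with 1 mean per group used every array (limma 3.58.1 under R 4.3.3, eBayes with intensity trend, two-sided). The Benjamini-Hochberg adjustment ran over 45037 probe sets, and calls were made at an adjusted p under 0.05. "Rose" and "fell" refer to calls; differences are log2 differences of group means. Percentages of all genes use 18193 genes, 1 probe set each. The members and lists were chosen with earlier results of these data known. From related lists, called genes were named, at most 4 of the smallest p per comparison with vehicle. The script was tested on simulated data. Replicate numbers did not pair the samples: same-numbered deviations had r of 0.273, 0.227 and 0.0224 at 6 h and of 0.0365, -0.523 and 0.405 at 48 h. Alternatives are listed in the closing section. Figures used matplotlib 3.10.9.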

Additional observations from a re-analysis of the deposited data

Results flagged for a closer look

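Among the 22 probe sets of the desmosome genes, 2 had 1 array far from the other 3 of the group treated with 1,25D for 48 h, the only group of 4 arrays; by chance about 1 in 20 would. Both times it was replicate 2. For the dimmest Dsp probe set the gap to the nearest array was 0.945 of the group's range, with 10.39 on replicate 2 and 6.11 to 6.35 on the others. For the dimmer Dsc2 probe set it was 0.945 as well, with 10.14 on replicate 2 and 9.44 to 9.48 on the others. Neither probe set represents its gene in the comparisons above.

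Perp lay above vehicle on every 1,25D array at 48 h and below vehicle on every 1,25D array at 6 h. The response at 48 h exceeded that at 6 h by 0.38, which did not pass the test over all probe sets (adjusted p = 0.129; 0.131 to 0.379 when each array was left out in turn).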

How the results depend on the processing

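Each result was recomputed with quantile normalization, median centring, an offset of 16, eBayes without trend or robust, the lowest 40% of signals dropped, a fit to the compared groups alone (not possible for the difference of responses), array weights, a replicate block, the next brightest probe set, no shared probe sets, both arrays that stand apart left out, and each array left out. The alternatives for genes of related lists were added after seeing the data.

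At 48 h the count of desmosome genes called for 1,25D was 0, but 3 with array weights (Pkp1, Pkp3 and Perp), 1 without both arrays that stand apart (Pkp1), and 0 to 1 with each array left out. The share of all genes called in the same fits was 2.39%, 5.73%, 3.31% and 1.43% to 2.75%. For the difference of responses the count of desmosome genes was 2 with array weights (Pkp1 and Perp), where 1.44% of all genes were called, against 0.632% without weights. Among all genes, 155 were called at 6 h and 115 for the difference, against 248 and 199 without both arrays that stand apart, and 68 at 6 h in the fit to the compared groups alone. With the next brightest probe set, which 6 of the genes have, 1 was called between times in vehicle (Dsc2) and 2 in 1,25D (Dsp and Dsc2). With each array left out, the counts between times ranged from 2 to 3 in vehicle (14% to 20.2% of all genes called) and from 4 to 6 in 1,25D (18.3% to 25.9%). Whether the replicate numbers pair the samples was not tested. With the replicate block Pkp3 between times in 1,25D gave -0.44 with an adjusted p of 0.0719, and the counts of calls moved by less than 1.5 times.

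Sign changes concerned differences that were not called. The Pkp3 difference of responses was 0.016 with quantile normalization, 0.10 with array weights and 0.11 without both arrays, and -0.18 to 0.12 with each array left out. Pkp1 between times in vehicle was -0.0047, -0.026 and -0.11 under the same 3 settings, and -0.11 to 0.070 with each array left out. Pkp2 between times in 1,25D was 0.048 with quantile normalization, 0.0037 with either other choice of probe set, and -0.11 to 0.075 with each array left out. The next brightest probe set gave 0.11 for Dsc2 and 0.063 for Pkp3 at 6 h, and 0.072 for Pkp3 between times in vehicle. Both choices of probe set gave, for Dsc3, -0.18 at 6 h, 0.13 for the difference and -0.16 between times in vehicle. With each array left out, Dsc3 at 6 h ranged from -0.0039 to 0.12, Pkp2 at 6 h from -0.041 to 0.17, Dsg2 at 48 h from -0.37 to 0.070, Jup at 48 h from -0.037 to 0.31, Dsg2 between times in vehicle from -0.16 to 0.28, and Jup there from -0.17 to 0.20. The causes were not tested. Small groups limit the precision. The main Dsc3 probe set lies at the 41.6 percentile of the array and its other probe set at the 12.3 percentile.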

Other observations

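Transcription factors known to control epithelial junction genes were also compared between times. Between 48 h and 6 h in 1,25D, 23.4% of all genes were called (10.9% higher and 12.5% lower). Of 13 measured factors, 7 were higher at 48 h and 1 was lower, with a median of 0.51 (0.012 over all genes). Among them were Grhl1 (2.10, adjusted p = 2.5e-05) and Trp63 (1.09, adjusted p = 0.00238), which encodes the p53 relative p63 of basal cells, whereas Zeb1, a repressor of epithelial genes, fell by 0.79 (adjusted p = 0.01). The repressors did not move together: Snai2 was among the 7 that rose (0.61, adjusted p = 0.0087), and Zeb2 (0.0093, adjusted p = 0.976) and Snai1 (-0.031, adjusted p = 0.942) were not called in 1,25D. In vehicle, where 18.6% of all genes were called, 2 rose (Grhl1 by 1.39 and Trp63 by 1.14) and 1 fell, the repressor Snai1 (-0.83, adjusted p = 0.00536). Without the 2 arrays that stand apart 2 factors rose and 3 fell in vehicle, where 23.9% of all genes were called. Between 1,25D and vehicle at 48 h only Klf4 was called among the factors (0.54, adjusted p = 0.0192), where 2.39% of all genes were. That call was lost when replicate 2 or 3 of vehicle at 48 h, or replicate 3 of 1,25D at 48 h, was left out (the largest adjusted p was 0.121). Trp63 gave -0.20 at 48 h (adjusted p = 1).

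Of 12 adherens junction genes, 1 rose and 2 fell between 48 h and 6 h in 1,25D, and 2 rose and 2 fell in vehicle. Over all genes, 23.4% were called in 1,25D (10.9% higher and 12.5% lower) and 18.6% in vehicle (9.84% higher and 8.75% lower). Cdh2, N-cadherin, was lower at 48 h than at 6 h in 1,25D (-2.27, adjusted p = 0.000923) and in vehicle (-2.16, adjusted p = 0.00299), and so was Nectin3 (-2.02, adjusted p = 7.07e-06, and -1.57, adjusted p = 0.000152). Nectin4 was higher in both (1.20, adjusted p = 3.7e-05, and 1.21, adjusted p = 9.37e-05), and Ctnnb1, beta-catenin, was called as higher in vehicle (0.26, adjusted p = 0.0475), with 0.21 in 1,25D (adjusted p = 0.0746). Cdh1, E-cadherin, gave -0.14 in 1,25D and 0.19 in vehicle and was called in neither. Beside the same shares of all genes, 4 of 8 hemidesmosome genes rose between times in 1,25D (Lama3, Lamb3, Dst and Col17a1) and 0 fell. In vehicle Dst rose and the plakin Plec fell. Genes compared between times were named after their values were seen.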
